A study of Mus musculus with 8 samples.

Results

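Mammalian mitochondrial DNA carries the genes of a small set of core proteins of the respiratory chain and of the ATP synthase. Both strands are copied into long precursor RNAs, which are cut mostly at the transfer RNAs that lie between the messengers. The freed messengers receive short poly(A) tails, which in some of them complete the stop codon. Their steady levels depend on transcription, on processing and on how long each RNA lasts. In the testis, mitochondria supply the steroid-making Leydig cells, the Sertoli cells and the germ cells, and in sperm they form the sheath of the midpiece.

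The transcripts described are ND1, ND2, ND4, ND5, COX1, COX2, COX3, CYTB and ATP6, the 9 rows of the mouse testis gene table, out of 17121, that carry these upper-case mitochondrial symbols. All 9 passed the filter on low values, as did 17066 rows in all. The series is on the part N6AMT1, a methyltransferase, plays in the making of sperm. RNA-seq was made of 8 testis libraries, 4 with the genotype label N6amt1-SKO (SKO 1 to 4) and 4 labelled CTL (CTL 1 to 4). The labels do not spell out SKO or give a Cre driver, a strain or an age, and name no allele or treatment of the CTL libraries. Whether each library is from its own animal is not stated, so the tests rest on the spread from library to library alone, and that spread can be technical. The targeted gene did not separate the labels: N6amt1 stood at 586, 557, 561 and 625 in the SKO-labelled libraries, against 475, 433, 629 and 514 in CTL libraries. These are TMM-normalised values, and the rows do not show which exons were read, so that gene checks neither genotype label. In whole testis, fewer cells of a type and less RNA per cell cannot be told apart.

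By the GENCODE annotation of mm10 (GRCm38), 8 of the 9 genes are ordered along the plus strand of chromosome M as ND1 (2751 to 3707), ND2 (3914 to 4951), COX1 (5328 to 6872), COX2 (7013 to 7696), ATP6 (7927 to 8607), COX3 (8607 to 9390), ND4 (10167 to 11544) and ND5 (11742 to 13565). CYTB (14145 to 15288) is the last protein-coding gene on this strand. ND6 (13552 to 14070) lies on the minus strand and shares its end with that of ND5, and the library kit does not mark strand. The annotated COX3, ND4 and CYTB each end 1 base past the last full codon, which leaves a stop codon to be completed by the tail.

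A stretch of chromosome 1 holds a near-exact nuclear copy of the segment around COX2, ATP6, COX3 and ND4. In COX2, 99.5% of all 100-base windows also occur, letter for letter, in an annotated nuclear transcript. The share is 99.5% for ATP6 and 99.9% for COX3. ND4 shares 60.8% of its windows and COX1 30.8%, whereas ND2 shares 3.19%. ND1, ND5 and CYTB have 0 shared windows. The sequences below, from the GENCODE transcripts, show the 2 extremes and the case between them, with capitals at the bases that differ between a gene and its copy. COX3 and the chromosome 1 copy Gm28437 are identical from their first base on, and over all 783 aligned bases. CYTB and its chromosome 4 copy Gm11410 match at 92.9% of 1142 aligned bases, and the 60 shown here hold the substitutions G14A, C24T and C61T. COX1 differs from the chromosome 1 copy Gm29216, which covers the last 483 bases of the gene, by A1066T alone. Positions count from 1 at the first base of the mitochondrial gene, and the gene's base is given first.
COX3, chrM:8607-8666, plus strand: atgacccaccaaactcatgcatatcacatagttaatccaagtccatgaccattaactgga
Gm28437, chr1:24613912-24613971, minus strand: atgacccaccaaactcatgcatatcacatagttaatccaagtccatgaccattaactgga
CYTB, chrM:14146-14205, plus strand: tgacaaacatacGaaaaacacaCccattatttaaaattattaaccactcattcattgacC
Gm11410, chr4:80003990-80004049, plus strand: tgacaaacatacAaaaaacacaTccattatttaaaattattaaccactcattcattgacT
COX1, chrM:6390-6449, plus strand: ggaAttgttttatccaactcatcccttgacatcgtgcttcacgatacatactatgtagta
Gm29216, chr1:24616129-24616188, minus strand: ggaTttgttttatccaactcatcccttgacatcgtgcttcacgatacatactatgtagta
A read from the identical stretches cannot be placed by its sequence. The sources used here do not say how such reads were treated, so the levels of COX2, ATP6 and COX3 are uncertain, as are the shared stretches of ND4 and COX1. COX1 serves below as the base of several ratios.

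The libraries were of unequal depth. Deposited values were read counts multiplied by a factor for each library, and dividing that factor out gave 65.6, 46.7, 58.8 and 40.6 M reads in SKO 1 to 4, against 70.1 and 57.4 M in CTL 3 and CTL 4. SKO 4 was the shallowest of these. For CTL 1 and CTL 2 the factor lay at or below 1, so their depth was no less than the column totals of 102 and 103 M. Libraries also fell into 2 sets by Rn18s, the 18S ribosomal RNA of the cytosol. It took 0.21, 0.27, 0.25 and 0.97% of the total in SKO 1 to 4, against 0.19, 0.17, 0.73 and 0.72% in CTL 1 to 4. SKO 4, CTL 3 and CTL 4 are called the higher-18S libraries, above 0.5%, and the other 5 the lower-18S libraries. The labels name no batch that matches these sets, which were drawn after the values had been seen. Rn7sk, another RNA without a poly(A) tail, had normalised values of 8.08, 130, 89 and 464 in SKO 1 to 4, against 14.2, 15.7, 165 and 139 in CTL 1 to 4. The labels give testis as the tissue, but their RNA protocol speaks of heart ventricles. Of 15 heart muscle markers 7 had rows here, Myl2, Actc1 and Nppa being among those not analysed here. The spermatocyte gene Ldhc, at 173007 to 255790 in SKO-labelled and 185891 to 370923 in CTL libraries, was abundant throughout.

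COX1 was the most abundant of the mitochondrial transcripts per length in every library, and the order below it had 3 tiers. Levels per length are normalised values per kilobase of annotated transcript, and are compared between genes on this scale only. COX1 averaged 753208 ± 230376 in SKO-labelled and 457133 ± 77958 in CTL libraries (SD, n = 4 each). ND1 averaged 359168 ± 198659 and CYTB 324080 ± 102167 in SKO-labelled libraries, against 228772 ± 94677 and 178279 ± 39473 in CTL libraries. ND1 was above CYTB in only 3 of the 8 libraries, so these neighbours had no fixed order.

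ND5, ND4 and ND2 formed the next tier, with SKO-labelled means of 151277, 159185 and 147909 per kilobase, against CTL means of 118065, 103303 and 94445. ND5 exceeded ND4 in 3 of 8 libraries, again SKO 4, CTL 3 and CTL 4, and ND4 exceeded ND2 in 4 of 8. CYTB stood above ND5 in all 8. The lowest tier held the 3 messengers that share nearly all their windows with chromosome 1. COX2 averaged 22152 ± 9026 in SKO-labelled and 14006 ± 2392 in CTL libraries per kilobase, and was above ATP6 in all 8. ATP6 averaged 14666 ± 4765 and COX3 12903 ± 3322 in SKO-labelled libraries, against 8492 ± 2157 and 7019 ± 1411 in CTL libraries. ATP6 was above COX3 in 7 of 8. The low rank of the messengers with a nuclear copy is a description of these values, and the part of read placement in it was not tested.

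**Figure D1:**
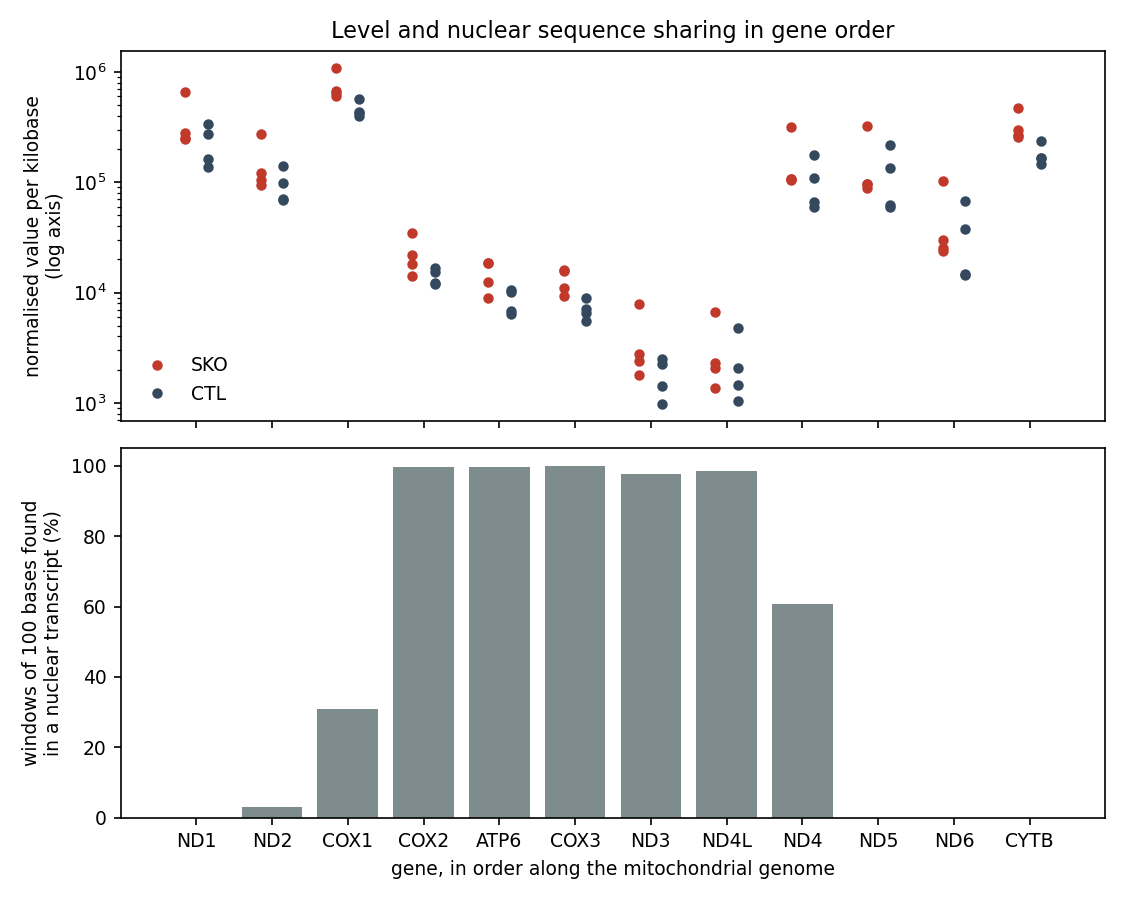
Upper panel: normalised value per kilobase (log axis) in each library, 1 point per library, SKO-labelled left of CTL, for the 12 mitochondrial rows in gene order. Lower panel: percentage of the 100-base windows of each gene found in a nuclear transcript. The genes with shares of 97.6% or more, COX2, ATP6, COX3, ND3 and ND4L, hold the lowest mean levels.

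As a whole, the 9 transcripts took a larger share of the SKO-labelled libraries. Their summed share of the library total was 2.25, 2.1, 2.31 and 4.47% in SKO 1 to 4, against 1.27, 1.13, 1.33 and 1.95% in CTL 1 to 4. In this share each SKO-labelled library lay above each CTL library, and SKO 4 lay far above the other 3. The mean was 2.78 ± 1.13% in SKO-labelled and 1.42 ± 0.366% in CTL libraries (SD, n = 4 each), a ratio of 1.96, or of 1.56 without SKO 4. This separation and these ratios hold for shares of the library total only. After TMM scaling the labels overlapped in the sum of the 9, with CTL 4 above SKO 1, SKO 2 and SKO 3. With library totals in place of TMM, genes in general also shifted upwards, their median on the log2 scale being 0.33 in place of 0.04. No test was made of the sum on either scale. SKO 4, with the most 18S, had the highest share, and CTL 4 had the highest among CTL libraries. CTL 3, with as much 18S as CTL 4, stood next to CTL 1.

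**Figure D2:**
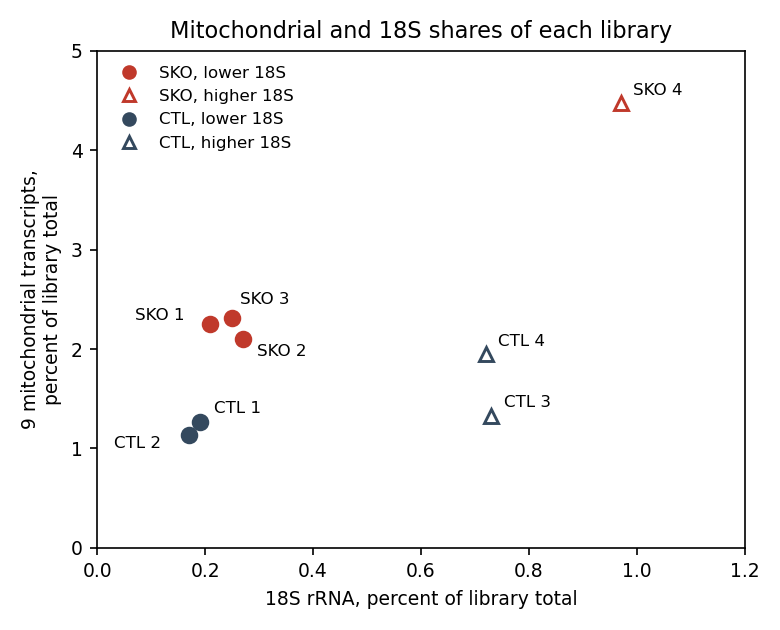
Share of the library total held by the 9 mitochondrial transcripts (percent) against the share held by 18S rRNA (percent), 1 point per library, with SKO-labelled first in the legend. Among the 5 lower-18S libraries the SKO-labelled ones hold 2.1 to 2.31% and the CTL ones 1.13 and 1.27%, and SKO 4 stands apart at 4.47%.

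COX3 and CYTB rose in the SKO-labelled libraries and none of the 9 fell. Rising means a higher value with a limma adjusted p under 0.05, and 2 of 9 members met it where 11.9% of all genes tested rose and 7.93% fell, 19.9% in either direction. All 9 had a higher mean log2 value in SKO-labelled libraries, as did 52.5% of all genes. The median log2 fold change was 0.61 over the 9, with a range of 0.33 to 0.86, and 0.04 over all genes. Without SKO 4 the median over the 9 was 0.35, with a range of -0.12 to 0.76. ND1 was then at 0.28, ND2 at 0.23, ND4 at 0.17, COX1 at 0.50 and COX2 at 0.35. In 3 of 9, COX1, COX3 and CYTB, every SKO-labelled library lay above every CTL library, which held for 15.6% of all genes. At an unadjusted p under 0.05, 5 of 9 were higher, against 21.7% of all genes.

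Complex I, the NADH dehydrogenase at the entry of the chain, is represented by ND1, ND2, ND4 and ND5, which belong to its membrane arm. ND1 had normalised values of 242817, 235397, 268584 and 628100 in SKO 1 to 4, against 156814, 131953, 261178 and 325794 in CTL 1 to 4. SKO 4 was far above all other libraries, and SKO 1 and SKO 2 lay below CTL 3. The log2 fold change of ND1 was 0.61 (SE 0.38), with a limma adjusted p of 0.27. ND2 read 108805, 98437, 125472 and 281404 in SKO 1 to 4, against 71644, 72965, 101170 and 146359 in CTL 1 to 4. The ND2 groups overlapped through CTL 3 and CTL 4, and the log2 fold change was 0.57 (SE 0.35) at a limma adjusted p of 0.267.

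ND4, a proton-pumping subunit, gave 144053, 146225, 147028 and 440122 in SKO 1 to 4, against 91525, 82997, 151733 and 243151 in CTL 1 to 4. SKO 1, SKO 2 and SKO 3 lay close together, above CTL 1 and CTL 2 and below CTL 3 and CTL 4. Its log2 fold change was 0.57 (SE 0.44; limma adjusted p = 0.378). ND5, another pumping subunit, gave 174855, 162897, 176898 and 589066 in SKO 1 to 4, against 113915, 109818, 243410 and 394257 in CTL 1 to 4. Here CTL 3 and CTL 4 exceeded SKO 1, SKO 2 and SKO 3, and ND5 had the smallest log2 fold change of the 9, 0.33 (SE 0.51; limma adjusted p = 0.686). Without SKO 4 the log2 fold change of ND5 was -0.12. The 95% intervals on the log2 scale ran from -0.24 to 1.47 for ND1, from -0.22 to 1.36 for ND2, from -0.41 to 1.55 for ND4 and from -0.82 to 1.48 for ND5, so both no change and a change of 1 log2 unit lay inside each.

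CYTB, the cytochrome b of complex III, is the only subunit of that complex made in mitochondria. Its normalised values were 304179, 296023, 338962 and 543826 in SKO 1 to 4, against 188748, 168552, 188308 and 270196 in CTL 1 to 4. The groups did not overlap, with the lowest SKO-labelled library above CTL 4. CYTB averaged 370748 ± 116878 in SKO-labelled and 203951 ± 45157 in CTL libraries (SD, n = 4 each), 1.79-fold higher, with a log2 fold change of 0.84 (SE 0.24; limma adjusted p = 0.0366). The call is close to the threshold: leaving out any 1 library other than CTL 4 ended it, with limma adjusted p values between 0.0533 (without SKO 4) and 0.115 (without CTL 3) and log2 fold changes between 0.64 and 0.93. CYTB shares 0 windows with an annotated nuclear transcript, unlike COX3.

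Complex IV, the cytochrome c oxidase that reduces oxygen, has COX1, COX2 and COX3 as its mitochondrial core. COX1, which binds the heme and copper of the active site, gave 1041346, 926809, 993738 and 1692932 in SKO 1 to 4, against 674159, 617834, 649491 and 883599 in CTL 1 to 4. The groups did not overlap. Its log2 fold change was 0.69 (SE 0.23), 1.61-fold, and missed the threshold with a limma adjusted p of 0.0628. COX2, which takes electrons from cytochrome c, gave 14866, 12283, 9622 and 23838 in SKO 1 to 4, against 8276, 11334, 8100 and 10612 in CTL 1 to 4. SKO 3 lay inside the CTL range, and the log2 fold change was 0.59 (SE 0.26; limma adjusted p = 0.129).

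COX3, the third core subunit, gave 8592, 7237, 12453 and 12182 in SKO 1 to 4, against 5156, 6959, 4309 and 5589 in CTL 1 to 4. The groups did not overlap, with SKO 2 only just above CTL 2. COX3 averaged 10116 ± 2604 in SKO-labelled and 5503 ± 1106 in CTL libraries (SD, n = 4 each), with the largest log2 fold change of the 9, 0.86 (SE 0.22; limma adjusted p = 0.0256). This call was lost without SKO 1, SKO 3, CTL 1 or CTL 3, at limma adjusted p values of 0.0513, 0.0843, 0.0634 and 0.0919. COX3 is the transcript whose sequence is identical to Gm28437 above. ATP6, the proton channel subunit of the ATP synthase, gave 12638, 8550, 6083 and 12679 in SKO 1 to 4, against 4648, 7161, 4386 and 6937 in CTL 1 to 4. SKO 3 fell within the CTL range, and the log2 fold change was 0.76 (SE 0.27; limma adjusted p = 0.0725).

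**Figure D3:**
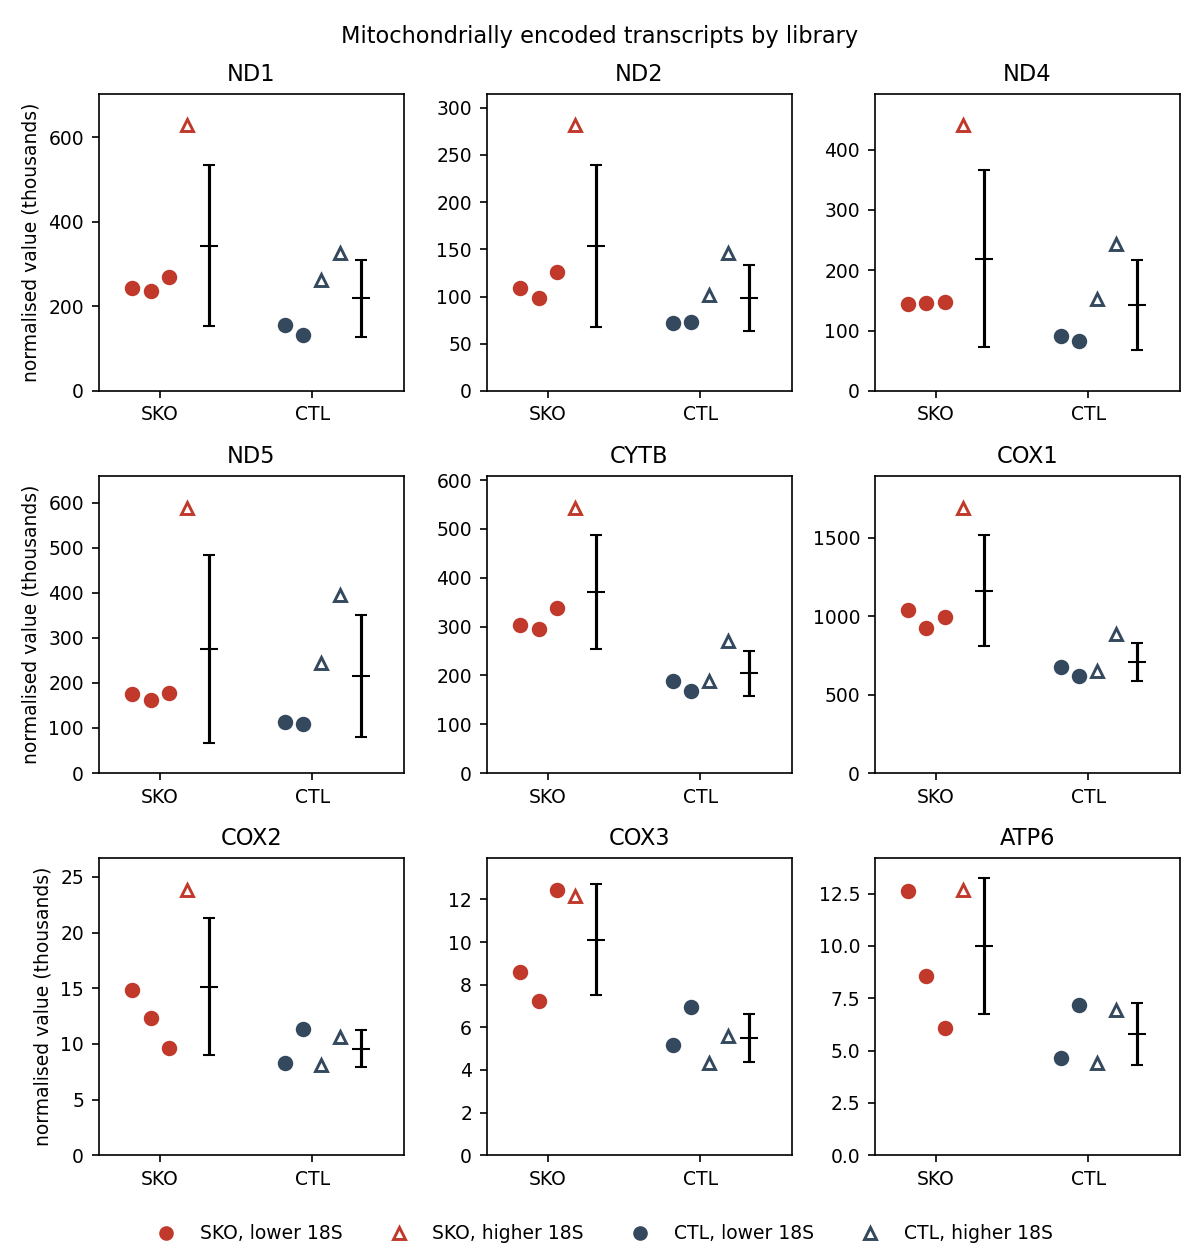
Normalised values of the 9 transcripts by library, divided by 1000, SKO-labelled left of CTL, with bars for the mean and 1 SD; triangles mark the higher-18S libraries. In ND1, ND2, ND4 and ND5 the triangles lie above the circles of the same label, while COX3 shows no such order.

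Other rows tied to mitochondrial DNA gave no call. ND6, the complex I subunit on the minus strand, read 13142, 12414, 15449 and 53283 in SKO 1 to 4, against 7465, 7682, 19471 and 34782 in CTL 1 to 4 (log2 fold change 0.45, limma adjusted p = 0.624). Its library order was close to that of ND5, with which it shares bases on the opposite strand. ND3, another complex I subunit, had a log2 fold change of 0.89 (limma adjusted p = 0.184) and ND4L, whose gene overlaps ND4, one of 0.38 (limma adjusted p = 0.659). Gm10925, the chromosome 1 copy of ATP6, read 5792, 5245, 4321 and 8779 in SKO 1 to 4, against 3778, 6148, 2591 and 4914 in CTL 1 to 4. The ATP6 value was 2.18, 1.63, 1.41 and 1.44 times that of Gm10925 in SKO 1 to 4, against 1.23, 1.16, 1.69 and 1.41 times in CTL 1 to 4. The 2 rows have 678 bases in common, so their reads cannot be told apart.

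More of the 9 transcripts passed the test among the lower-18S libraries, a set drawn after the values had been seen. In these 5 libraries, 3 SKO-labelled against 2 CTL, 6 of 9 rose, where 18.8% of all genes did. These were ND1 (log2 fold change 0.79, SE 0.12), ND2 (0.61, SE 0.12), ND4 (0.74, SE 0.10), ND5 (0.62, SE 0.10), CYTB (0.81, SE 0.12) and COX1 (0.61, SE 0.12), with limma adjusted p values between 0.0165 and 0.0186. COX3 did not pass there, at 0.62 (SE 0.24; limma adjusted p = 0.0798), nor did COX2 at 0.32 (limma adjusted p = 0.269) or ATP6 at 0.59 (limma adjusted p = 0.176). ND5, the weakest of the 9 over all libraries, was 1.53-fold higher within this set. In this set the labels also differed in depth. SKO 1 to 3 had 65.6, 46.7 and 58.8 M reads. CTL 1 and CTL 2 had no less than 102 and 103 M. The median log2 difference within the set was 0.90 over Sertoli, -0.86 over round spermatid and -1.22 over elongating spermatid markers. The part of depth or cell make-up in these calls was not tested.

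The higher-18S set holds SKO 4 alone against CTL 3 and CTL 4. Log2 differences there ran from 0.93 (ND5) to 1.37 (COX2), and they describe 1 library that stood far above the other SKO-labelled ones. With the 18S set as a term in the fit over all 8 libraries, 7 of 9 rose, where 16.4% of all genes did. ND5 then had a log2 fold change of 0.73 (limma adjusted p = 0.0121) and ND1 one of 0.90 (limma adjusted p = 0.00454), while COX2 (limma adjusted p = 0.0594) and ATP6 (limma adjusted p = 0.0546) missed the threshold. Whether the change of the complex I transcripts differs between the sets was not tested. The fit with the 18S set held no term for depth or cell make-up.

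**Figure D4:**
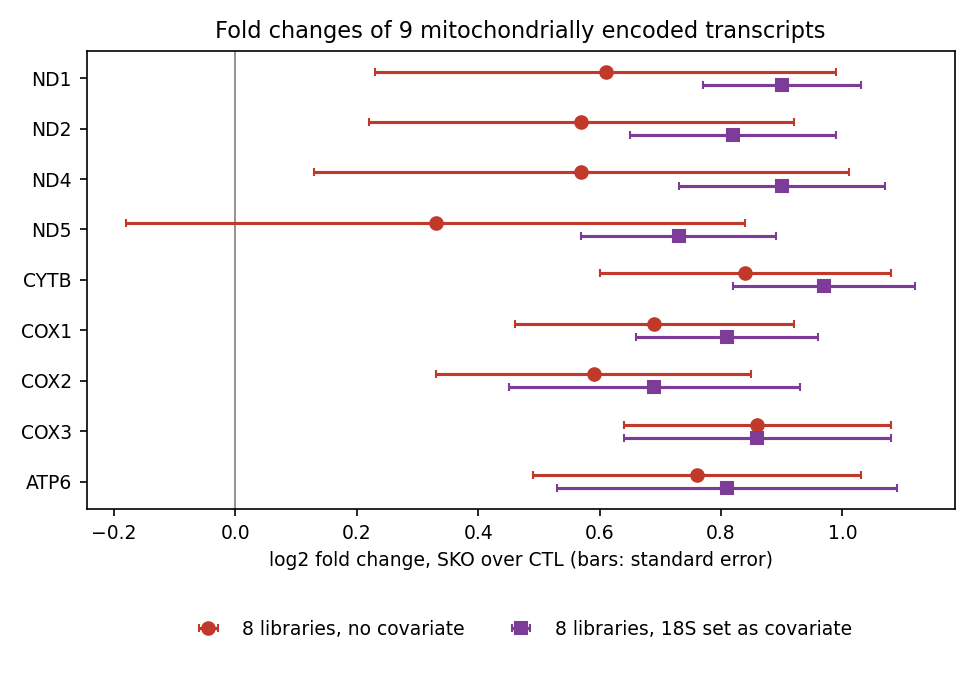
Log2 fold change of each of the 9 transcripts, SKO-labelled over CTL, over all 8 libraries without a covariate (circles) and with the 18S set as a covariate (squares); bars are standard errors. The circles run from 0.33 for ND5 to 0.86 for COX3, and the squares of ND1, ND4 and ND5 lie at 0.90, 0.90 and 0.73 with shorter bars.

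Ratios between transcripts of 1 library do not depend on the scaling between libraries. Over the 36 pairs of the 9 transcripts, 0 pairs had groups that did not overlap, and 0 reached an exact p under 0.05 in the two-sided permutation test, whose smallest possible p with 4 against 4 is 0.0286. The smallest p was that of CYTB over COX1, whose mean log2 ratio was higher in SKO-labelled libraries by 0.15 (exact permutation p = 0.0571, adjusted over the 36 pairs 0.999). CYTB amounted to 29.2, 31.9, 34.1 and 32.1% of COX1 in SKO 1 to 4, against 28, 27.3, 29 and 30.6% in CTL 1 to 4. Only CTL 4 lay above the lowest SKO-labelled library. Over the 8 libraries these 2 transcripts had the closest pattern of any pair (Pearson 0.99, a description over libraries that differ in depth and 18S set).

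Many of the ratios parted by 18S set, which describes these libraries only. ND5 amounted to 16.8, 17.6, 17.8 and 34.8% of COX1 in SKO 1 to 4, against 16.9, 17.8, 37.5 and 44.6% in CTL 1 to 4. The 5 lower-18S libraries thus lay between 16.8 and 17.8% under either label, and the 3 higher-18S libraries between 34.8 and 44.6%. ND4 likewise gave 13.8, 15.8, 14.8 and 26% of COX1 in SKO 1 to 4, against 13.6, 13.4, 23.4 and 27.5% in CTL 1 to 4. ND1 gave 23.3, 25.4, 27 and 37.1% of COX1 in SKO 1 to 4, against 23.3, 21.4, 40.2 and 36.9% in CTL 1 to 4. ND6, on the other strand, gave 1.26, 1.34, 1.55 and 3.15% in SKO 1 to 4, against 1.11, 1.24, 3 and 3.94% in CTL 1 to 4. In these 4 ratios SKO 4 stood with CTL 3 and CTL 4, and SKO 1, SKO 2 and SKO 3 stood with CTL 1 and CTL 2.

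All 8 ratios of a complex I transcript to COX1 or CYTB were free of overlap between the 18S sets, higher in the higher-18S libraries by 0.51 to 1.16 on the log2 scale. So were 10 of the 12 ratios of a complex I transcript to COX2, COX3 or ATP6, and 25 of the 36 pairs in all. These counts describe sets drawn from the same libraries and carry no test. No share over pairs of all genes was taken, so the counts are not a result about these pairs. The ratio of CYTB to COX1 differed by 0.03 between the sets. As a share of all 9 transcripts, the 4 of complex I took 32.7, 33.9, 34.5 and 45.9% in SKO 1 to 4, against 33, 32.9, 47 and 48.5% in CTL 1 to 4. The mean log2 ratio of ND5 to COX1 differed between labels by -0.36 over all libraries (exact permutation p = 0.286) and by 0.00 among the lower-18S libraries. Within that set the difference was 0.18 for ND1, 0.13 for ND4 and 0.20 for CYTB over COX1. The labels did not overlap in those 3 ratios nor in 5 further pairs of the 36, with 3 libraries against 2 and no test. With so few libraries labels often part by chance, so that count is not a result about the pairs.

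**Figure D5:**
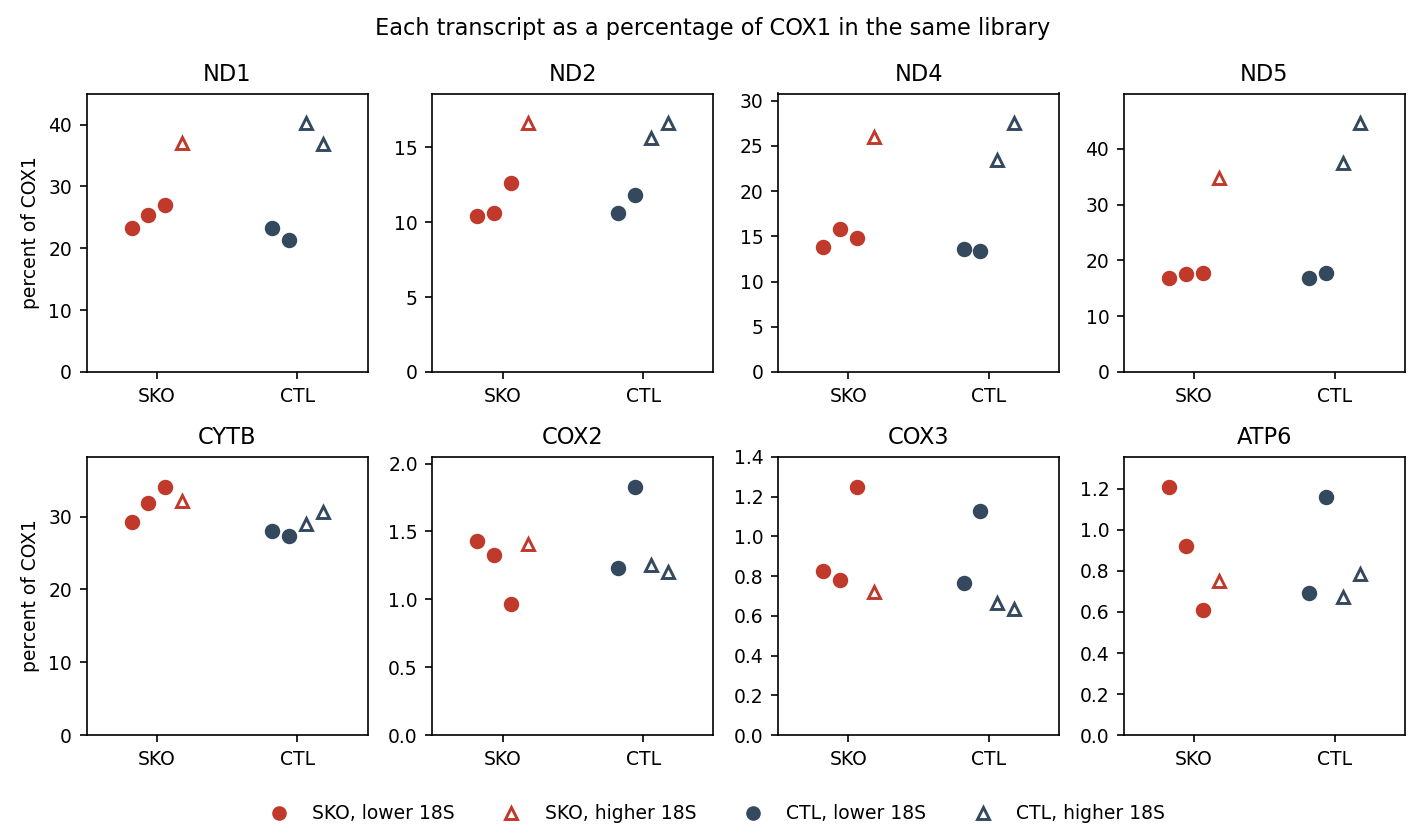
Each of the other 8 transcripts as a percentage of COX1 in the same library, SKO-labelled left of CTL; triangles are the higher-18S libraries and circles the lower-18S ones. ND1, ND2, ND4 and ND5 split by 18S set under both labels, whereas CYTB stays between 27.3 and 34.1% in all 8.

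Nuclear genes that keep and express mitochondrial DNA gave 56 tested members, of which 5 rose and 2 fell, with a median log2 fold change of -0.13, where 11.9% of all genes rose and 7.93% fell. Of 10 transcription genes 0 were called at a limma adjusted p under 0.05, their median log2 fold change being -0.25. Tfam, which packs mitochondrial DNA and starts transcription, stood at 4347 ± 1863 in SKO-labelled and 5426 ± 2375 in CTL libraries (limma adjusted p = 0.642). Polrmt, the mitochondrial RNA polymerase, stood at 4976 ± 189 in SKO-labelled and 5948 ± 1357 in CTL libraries (limma adjusted p = 0.345; SD, n = 4 each here and in the values that follow).

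Among 9 replication genes, Ssbp1, which coats single-stranded mitochondrial DNA, rose to 855 ± 79.2 in SKO-labelled libraries, against 348 ± 116 in CTL libraries (log2 fold change 1.33, limma adjusted p = 0.0122). Twnk, the replicative helicase, averaged 2261 ± 139 in SKO-labelled and 1658 ± 119 in CTL libraries (log2 fold change 0.45, limma adjusted p = 0.0359). Polg, the catalytic subunit of the mitochondrial DNA polymerase, fell, at 9514 ± 1973 in SKO-labelled and 14208 ± 1060 in CTL libraries (log2 fold change -0.60, limma adjusted p = 0.0365). Lig3, a DNA ligase that also works in the nucleus, fell with a log2 fold change of -0.84 (limma adjusted p = 0.0156). The 2 that rose and the 2 that fell thus belong to the same process.

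Of 15 genes that process mitochondrial RNA, 1 rose, Hsd17b10, a subunit of the RNase P that cuts transfer RNAs at their front end, at 1588 ± 214 in SKO-labelled and 1067 ± 75.2 in CTL libraries (log2 fold change 0.56, limma adjusted p = 0.0304). None of 7 genes of messenger stability and decay was called. Lrpprc, which protects mitochondrial messengers, averaged 8987 ± 993 in SKO-labelled and 12279 ± 4160 in CTL libraries (limma adjusted p = 0.245). Of 15 translation factors 2 rose. They were Mtrf1l, a release factor that reads stop codons in mitochondria (log2 fold change 0.80, limma adjusted p = 0.0169), and Guf1, a translation GTPase (0.73, limma adjusted p = 0.0308). Hemk1, which methylates mitochondrial release factors and is a relative of N6AMT1, averaged 2006 ± 425 in SKO-labelled and 2601 ± 476 in CTL libraries (limma adjusted p = 0.186).

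The partner subunits of the respiratory chain are made from nuclear genes. Of 81 such genes tested 7 rose and 0 fell, with a median log2 fold change of 0.18, where 11.9% of all genes rose. A share near or under that of all genes is not a result about the group. Cox7b of complex IV had a log2 fold change of 1.07 (limma adjusted p = 0.017) and Ndufa1 of complex I one of 1.09 (limma adjusted p = 0.0446). Cycs, the somatic cytochrome c, averaged 6277 ± 619 in SKO-labelled and 3039 ± 627 in CTL libraries (log2 fold change 1.06, limma adjusted p = 0.0122). In a list of 23 abundant mitochondrial proteins 8 rose and 0 fell, beside the same shares over all genes. Among the risen was Slc25a5, an ADP/ATP carrier, at 9040 ± 168 in SKO-labelled and 4925 ± 759 in CTL libraries (log2 fold change 0.89, limma adjusted p = 0.0122). The sum over the 23 was lower in SKO-labelled libraries, at 295401 to 305510, against 320220 to 331006 in CTL libraries. This list was not tested as a whole either. Of 6 regulators of mitochondrial biogenesis and 8 genes of sperm mitochondria, 0 were called. Gpx4, a structural protein of the sperm midpiece, averaged 48502 ± 14859 in SKO-labelled and 65670 ± 28008 in CTL libraries (limma adjusted p = 0.436).

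Markers of some other cells moved with the label, beside shares of 11.9% risen and 7.93% fallen over all genes. Of 22 Sertoli markers 15 rose and 0 fell (median log2 fold change 0.98), and their sum ran from 230149 to 427636 in SKO-labelled and from 109503 to 219285 in CTL libraries. Of 6 peritubular myoid markers 4 rose, with sums of 36720 to 43140 in SKO-labelled and 21186 to 25330 in CTL libraries. Of 13 macrophage markers 5 rose, with sums of 17789 to 25963 in SKO-labelled and 12823 to 17594 in CTL libraries. Of 10 spermatocyte markers 4 fell and 0 rose, with sums of 505507 to 571680 in SKO-labelled and 638389 to 829937 in CTL libraries. These sums are TMM-normalised and set the labels apart. The mitochondrial sum does so only as a share of the library total, since after TMM scaling its labels overlap through CTL 4. The part of these markers in the mitochondrial values was not tested.

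Of 12 Leydig markers 3 rose, where 11.9% of all genes rose and 7.93% fell. Their sums were 54396 to 95586 in SKO-labelled and 62108 to 75246 in CTL libraries. Of 7 heart muscle markers 2 rose, Tnni3 and Tnnt2, with sums over the 7 of 4474 to 6948 in SKO-labelled and 2308 to 2938 in CTL libraries. These heart sums also set the labels apart, and the median log2 fold change over the 7 was 0.91. The part of heart tissue, which the RNA protocol names, in the mitochondrial values was not tested. Of 10 spermatogonial markers 3 rose and 1 fell, and of 10 round spermatid markers 1 fell. Of 8 epididymis markers 1 had a row, and it was not called. Of 5 red blood cell markers 1 fell. Of 10 elongating spermatid markers 0 were called, with sums of 266405 to 743881 in SKO-labelled and 211908 to 948562 in CTL libraries. Counts of 1 to 3 in lists this short are not a result about a cell type. When values were scaled so that Sertoli markers stayed level, the log2 fold changes of all 9 transcripts were below 0, from -0.75 to -0.21, where the median of all genes was -1.02. That scaling moves every gene of a library by the same factor.

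Among the nuclear genes whose log2 values followed the mean of the 9 transcripts most closely were Rpl19-ps11 (Pearson 0.995), Zdhhc20 (0.977), Taf7 (0.975), Trim12c (0.967) and Spdl1 (0.964). The likeness was taken over 8 libraries that differ in depth and 18S set, among genes with a mean normalised value of at least 500. In each of the named genes SKO 4 held the highest value. For Rpl19-ps11 it was 1199, against 441 to 493 in SKO 1 to 3 and 281 to 528 in CTL libraries.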

How the data were processed

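RNA was measured in 8 mouse testis libraries (4 labelled N6amt1-SKO, 4 CTL). Per the submitters' processing notes, the names recorded, without roles or settings, are fastp, CASAVA, featureCounts 1.5.0-p3, HISAT2 2.0.5 and the build mm10. Per the labels' protocols, total RNA was taken with TRIzol and the NEBNext Ultra RNA kit, which does not mark strand, was used. The authors deposited 1 gene table whose values are a score: counts of reads scaled by 1 factor for each library, then rounded. This was read from the values, since in 6 libraries 100.00% of values up to 1000 were rounded multiples of whole numbers, where 43.0 to 68.0% would be by chance. CTL 1 and CTL 2 had factors at or below 1.

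Because the values are not raw counts, genes with at least 25 in at least 4 libraries (17066 of 17121) were scaled by TMM (trims of 30% and 5%), taken as log2(value + 5) and tested with limma 3.58.1 in R 4.3.3, with two-sided p-values adjusted by Benjamini-Hochberg across the genes tested and a threshold of 0.05. Log2 fold changes are on that scale. The fit was tested on simulated data. Ratios between transcripts were compared by an exact permutation test over 70 assignments. Nuclear copies were found with BLAST 2.17.0 among GENCODE transcripts at 90% identity or more; windows of 100 bases were matched exactly, the read length being not given in the sources used here. Libraries were not treated as paired by replicate number.

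Named were all 9 members, other rows of mitochondrial DNA or its copies, the largest called changes of each gene list or else its most abundant gene, Hemk1, and the 6 nuclear genes nearest in pattern, of which 1 is not reported here; Tfam, Polrmt, Ldhc and some list members were added after their values were seen. Members, lists and the 18S limit were chosen with earlier results of these data known. Alternatives were other scalings, filters, added constants, library subsets, a block and a covariate.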

Additional observations from a re-analysis of the deposited data

Results flagged for a closer look

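In 16 of 102 group values examined, 1 library lay far from the other 3 of its group; chance flags about 1 in 20 groups, and these values are not independent of one another. SKO 4 was the distant library in 14 of them. Its normalised values were 628100 for ND1, 281404 for ND2, 440122 for ND4, 589066 for ND5 and 1692932 for COX1. It was likewise far above the other SKO-labelled libraries for ND3 (2749), ND6 (53283) and Gm10222, the nuclear copy of ND4L (1226), and in the summed share of the 9 transcripts (4.47%).

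SKO 4 also stood apart in 5 ratios within the library: ND1 over CYTB (1.15), ND4 over CYTB (0.809), ND4 over COX1 (0.26), ND5 over CYTB (1.08) and ND5 over COX1 (0.348). SKO 4 had the highest 18S share of all libraries, 0.97%, and the fewest reads of the 6 whose depth could be read, 40.6 M. The part of either in these values was not tested.

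COX1 over COX2 was 103 in SKO 3, above the other SKO-labelled libraries, and 54.5 in CTL 2, below the other CTL libraries. COX2 shares nearly all its sequence with chromosome 1.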

How the results depend on the processing

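Among limma calls, 2 of 9 transcripts passed as reported, 1 with median-ratio factors, 5 with library totals, 5 with totals without the 9, 5 with a replicate block and 1 without CTL 1 and CTL 2. The counts were 6 in lower-18S libraries, 5 in higher-18S ones (SKO 4 alone against a pair, assumed to vary like it, where 0.205% of all genes rose) and 7 with the 18S covariate. With Sertoli markers held level and against a fold of 1.5 the count was 0, with 0 of 9 also at an unadjusted p under 0.05. Leaving out 1 library gave 0 to 2: 0 without SKO 1, SKO 3, CTL 1 or CTL 3 (3, 5, 3 and 2 of 9 at an unadjusted p under 0.05) and 1 without SKO 2, SKO 4 or CTL 2. COX3 passed in 17 and CYTB in 14 of 25 alternatives. Genes in general moved too. Of all genes 2039 rose as reported, 1601 with median-ratio factors, 4885 with library totals and 5147 with totals without the 9. A replicate block gave 2163 risen genes. Without CTL 1 and CTL 2 the number was 1793. In lower-18S libraries 18.8% of all genes rose, and 16.4% with the 18S covariate.

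Over all genes 3393 were called, against 5341 with library totals, 5550 with totals without the 9, 11154 with Sertoli markers level, 5491 in lower-18S and 266 in higher-18S libraries. Against a fold of 1.5 limma called 0 (688 at an unadjusted p under 0.05). Without 1 library the count ran from 0 to 3973, with 0 without SKO 3 (4790 at an unadjusted p under 0.05). Of the calls 60.1% were risen as reported, 49.1% with median-ratio factors, 91.5% with totals, which moved the median of all genes to 0.33, and 0.0538% with Sertoli markers level.

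Log2 fold changes with Sertoli markers level were -0.46 (ND1), -0.50 (ND2), -0.51 (ND4), -0.75 (ND5), -0.24 (CYTB), -0.39 (COX1), -0.48 (COX2), -0.21 (COX3) and -0.32 (ATP6), beside a median of all genes of -1.02. ND5 ran from -0.12 (without SKO 4) to 0.66 (without CTL 4) leaving out 1 library. Without CTL 1 and CTL 2, ND4 was at -0.05 and ND5 at -0.46. No other alternative turned a direction. The cause was not tested.

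Pairs of transcripts whose ratios did not overlap between labels numbered 0 as reported, 14 without CTL 1 and CTL 2, 8 among lower-18S libraries, and 0 to 4 leaving out 1 library (4 without SKO 4). In 6 pairs all 4 same-numbered library pairs differed in 1 direction (the replicate block). Same-numbered libraries deviated together with correlations of 0.67, 0.01, 0.08 and 0.23, and differently numbered ones with -0.72 to 0.71. Pairing by number was not assumed, and so few libraries cannot exclude it. Among the 8 pairs, SKO-labelled libraries were higher for ND1/ND5, ND1/COX1, ND4/ND5, ND4/COX1 and CYTB/COX1, and lower for ND2/CYTB, ND5/CYTB and COX2/ATP6. Subsets and pairings this small often part the labels by chance. The pairs also share transcripts, so these counts and directions carry no test. The summed share differed by 1.36 percentage points, and by 0.798 to 1.59 leaving out 1 library. Depth could not be read for CTL 1 and CTL 2, and 4 libraries a group limit every interval.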
